A study of Mus musculus with 9 samples.

Results

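Injected exosomes were compared with injected saline in the border zone of infarcted mouse hearts, over every gene the arrays name. The members are the 6 arrays whose labels give the treatment as iCM-Ex (3) or saline (3), of 9 arrays in all. The other 3 came from hearts injected with whole cardiomyocytes (iCM). They entered the estimate of the spread, and their levels or their contrast with iCM-Ex are quoted beside some genes. All mice were female SCID animals of 80 to 100 days, a strain without functional T and B lymphocytes, and all had an acute infarct made by ligation of the left anterior descending coronary artery (LAD). Tissue was taken 4 weeks later from the peri-infarct region (PIR), found under the microscope and cut away from infarct core and remote muscle. iCMs were cardiomyocytes differentiated from induced pluripotent stem cells and grown until they beat, and iCM-Ex were precipitated from such cells. The labels call the samples of each group biological replicates. Not given in the sources used here are the species of the stem cells, the exosome dose, whether tissue was pooled and the time of day of collection.

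Exosomes are small membrane vesicles that cells release and that carry proteins, lipids and RNA to other cells. The border zone of an infarct holds surviving cardiomyocytes beside fibroblasts, capillaries and macrophages, and its muscle cells are known to lose gap junctions and ion channels while matrix and immune cells increase. The arrays sum the RNA of all these cells, so fewer cells of a type and less RNA per cell cannot be told apart.

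Each gene has 1 value per array, the authors' log2 signal, on which a difference of 1 is a doubling. Levels are not comparable between genes, because probe sets differ in brightness. The tissue label fitted its markers: the 10 cardiomyocyte markers had mean signals of 16.61 to 17.44 in saline and 16.64 to 16.97 in iCM-Ex. Arrays correlated across genes at 0.943 to 0.978 within saline, 0.961 to 0.981 within iCM-Ex and 0.920 to 0.975 between the groups. Saline replicate 1 had a median gene signal of 5.44, against 5.65 to 5.68 on the other 5 arrays. Control separation, the median positive minus the median negative control signal, was higher on every iCM-Ex array (3.63, 4.01 and 3.67) than on every saline array (3.26, 3.48 and 3.56). It was 3.21, 2.47 and 3.15 in iCM. On iCM replicate 2 fast skeletal muscle markers had a mean of 12.06 and adipocyte markers of 10.55. The other arrays had 5.12 to 6.15 and 6.4 to 7.67. Contrasts with iCM carry these limits. The median negative control averaged 5.29 in saline and 4.86 in iCM-Ex, and a change from or to a level below these has an uncertain size.

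Of 19505 genes, 68 differed between exosome and saline hearts (limma adjusted p under 0.05 over all genes), which is 0.349% of those tested. In iCM-Ex 43 rose (0.22%) and 25 fell (0.128%), with a median size of 2.34. In each of the 68 the 3 iCM-Ex arrays lay wholly above or wholly below the 3 saline arrays. Over all genes, 12.2% had every iCM-Ex array above every saline array and 9.53% had every one below. For 1 gene taken alone, 3 against 3 arrays allow an exact permutation p of 0.1 at the lowest. Without iCM-Ex replicate 2, iCM-Ex replicate 3 or saline replicate 2 no gene passed the limma threshold, while 2693, 1915 and 2273 had an unadjusted p under 0.05. Without saline replicate 1 the count was 1, without saline replicate 3 it was 163, and without iCM-Ex replicate 1 it was 70. In a fit of the 6 arrays alone, without iCM, 1 gene passed, none of the 68, and 3088 had an unadjusted p under 0.05. Because their groups do not overlap, the 68 genes could not change direction there or with any of the 6 arrays left out. Their highest limma adjusted p on leaving out an array lay between 0.173 and 0.239. Genes named below are the 15 largest rises and falls and the members with the smallest p of each list. Others were chosen after their values were seen.

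**Figure D1:**
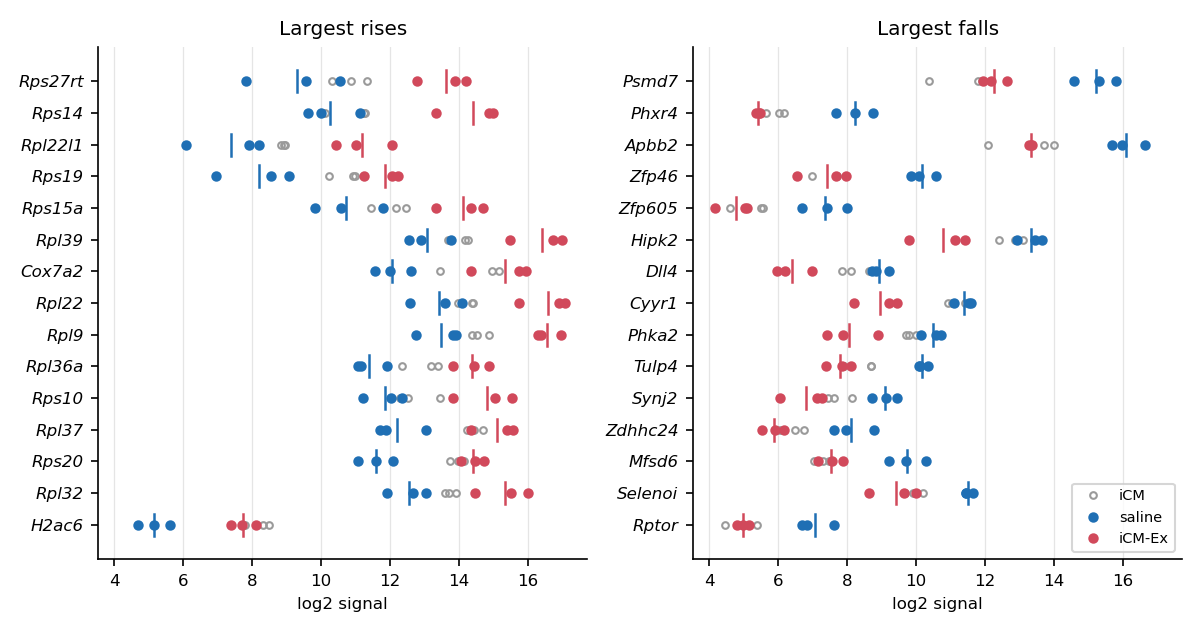
Log2 signals of the 15 largest rises (left) and 15 largest falls (right) between iCM-Ex and saline, with 1 point per array for saline (blue), iCM-Ex (red) and iCM (open grey) and vertical bars for the saline and iCM-Ex means of 3 arrays. The 3 red points of each gene lie on one side of the 3 blue ones, and the grey iCM points lie near saline for Rps14 and Dll4 and near iCM-Ex for Psmd7 and Apbb2.

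Ribosomal protein genes were the main group that rose after exosome injection. The ribosome is built from a small subunit, which reads the messenger RNA, and a large subunit, which joins the amino acids, and each subunit holds many proteins made from separate genes. Of 24 measured small-subunit genes 24 were higher in iCM-Ex, and 7 rose. Of 40 large-subunit genes 36 were higher, and 9 rose. No member fell in either list, and the median differences were 2.01 and 1.72, against 0.04 over all genes. In 21 (87.5%) and 33 (82.5%) members every iCM-Ex array lay above every saline array, against 12.2% of all genes.

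Rps14, a small-subunit protein, had log2 signals of 9.99, 9.62 and 11.14 in saline and 13.34, 14.98 and 14.87 in iCM-Ex, a rise of 4.15 ± 0.55 (SE; limma adjusted p = 0.0291). The groups were more than 2 log2 units apart at their nearest arrays. Rps20 rose from 11.08, 11.58 and 12.09 to 14.05, 14.72 and 14.46, by 2.83 ± 0.33. Rps25 was nearly equal on the saline arrays, at 12.84, 12.83 and 12.92, and was at 14.50, 15.24 and 14.99 in iCM-Ex. Rps19, mutated in an inherited anaemia of failing red cell production, rose by 3.66 ± 0.52. Its saline values were 6.96, 8.54 and 9.07, with saline replicate 1 lowest. Rps15a, Rps10 and Rps24 rose by 3.39, 2.94 and 2.38. Rps6, the target of the S6 kinases, overlapped, at 18.33 to 18.90 in saline and 18.79 to 19.02 in iCM-Ex, close to the highest value in the files, 19.93.

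Among large-subunit genes, Rpl39 was at 12.90, 12.55 and 13.78 in saline and at 15.49, 16.73 and 17.00 in iCM-Ex. Rpl9 was at 12.74, 13.92 and 13.83 against 16.28, 16.39 and 16.96, and Rpl36a at 11.15, 11.08 and 11.91 against 13.84, 14.86 and 14.43. These rises were 3.33 ± 0.45, 3.05 ± 0.37 and 3.0 ± 0.39. Rpl22, Rpl37, Rpl32 and Rpl7 rose by 3.14, 2.89, 2.79 and 2.48. A few members did not follow. Rpl4 differed by −0.34, Rpl6 by −0.10 and the muscle paralogue Rpl3l by −0.58, all with overlapping arrays. Rps27rt (outside both lists), Rpl22l1 and Rpl36al, which rose by 4.31, 3.79 and 2.41, are near copies of Rps27, Rpl22 and Rpl36a, and ribosomal genes have many processed copies in the genome, so their signals may be shared.

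Within both subunits iCM-Ex replicate 1 was the lowest of the exosome arrays and saline replicate 1 the lowest of the saline arrays. The small-subunit mean was 11.39, 12.10 and 12.62 in saline, 13.53, 14.37 and 14.54 in iCM-Ex and 12.80, 12.27 and 12.25 in iCM. The large-subunit mean was 12.22, 12.76 and 13.20 in saline, 13.91, 14.65 and 14.79 in iCM-Ex and 13.29, 12.91 and 12.80 in iCM. So the exosome arrays lay above both other groups. Against iCM hearts, with the same iCM-Ex arrays in both comparisons, Rps14 was higher by 3.53, Rpl39 by 2.38, Rpl22 by 2.32, Rpl9 by 1.95 and Rps25 by 1.45 (limma adjusted p = 0.0275, 0.0411, 0.0456, 0.0399 and 0.0386). The other 11 of the 16 ribosomal genes that rose did not pass against iCM, with differences from 0.46 for Rps20 and Rps24 (limma adjusted p = 0.593 and 0.627) to 2.27 for Rpl22l1 (0.0869). Across all genes 1.07% passed in that contrast. Control separation also differed by group, with means of 3.77 in iCM-Ex, 3.44 in saline and 2.94 in iCM. Its part in these rises was not tested. With control separation as a covariate the 2 medians were 1.72 for the small and 1.52 for the large subunit, while 5 genes of all passed the limma threshold.

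The promoters of ribosomal protein genes carry known features, a binding site for ETS factors and a start within a run of C and T from which the messenger takes the tract that ties its translation to mTOR. In the RefSeq promoter table (GRCm38.p6, 250 bases before to 50 after the start) 51 of the 64 genes had an entry. CGGAAGT, searched on both strands, was in 18 of them (35.3%), against 9.68% of 15691 measured genes. A run of at least 8 C or T overlapping the 5 bases either side of the start, added after values were seen, was in 39.2% against 11.2%. Among the 36 genes that rose and were in the table, CGGAAGT was in 25% and the run in 16.7%. The next count did not take in every genomic region, so it is a minimum. Of the 12 ribosomal genes in the table that rose, at least 2 hold CGGAAGT in the last 120 bases before the start. Those stretches are shown with the match in capitals, Rpl37 on the plus strand at chr15:5116493-5116612 and Rps25 on the plus strand at chr9:44407594-44407713.
Rpl37: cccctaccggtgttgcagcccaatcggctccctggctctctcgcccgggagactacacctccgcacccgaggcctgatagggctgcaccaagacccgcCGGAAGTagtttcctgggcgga
Rps25: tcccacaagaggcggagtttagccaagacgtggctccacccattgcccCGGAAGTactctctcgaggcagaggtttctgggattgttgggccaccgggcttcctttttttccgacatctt
A match is a description of the sequence and shows no binding in these hearts.

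Other genes that rose came from several processes. Naca, a subunit of the complex that meets new peptides at the ribosome, was at 11.91, 13.03 and 12.23 in saline and 14.64, 14.72 and 15.12 in iCM-Ex. Rbis, a ribosome biogenesis factor, rose by 2.49 ± 0.38. The mitochondrial ribosome genes Mrps24 and Chchd1 rose by 1.92 and 2.20, and Mrps24 was nearly constant in saline at 5.70, 5.56 and 5.68. Polr2k, a small subunit shared by the nuclear RNA polymerases, rose by 1.92. The splicing genes Sf3b6, whose protein meets the intron branch point, and Ppih, a cyclophilin of the spliceosome, rose by 1.59 and 2.14. Ranbp1, a partner of the nuclear transport GTPase Ran, rose by 2.05. Each of these separated the groups on all 6 arrays.

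Cox7a2, a small subunit of cytochrome c oxidase, was at 12.61, 12.01 and 11.56 in saline and at 14.35, 15.74 and 15.93 in iCM-Ex, a rise of 3.28 ± 0.55 (limma adjusted p = 0.0439). Its iCM mean of 14.52 ± 0.93 (SD, n = 3) lay nearer to the exosome hearts, and iCM-Ex against iCM differed by 0.82 (limma adjusted p = 0.56). Tnnt1, the slow skeletal isoform of troponin T, rose from 5.68, 5.84 and 6.10 to 8.36, 8.24 and 8.19, and was at 8.44 ± 0.75 in iCM. Fkbp1a, the FK506-binding protein that docks on ryanodine receptors, rose by 1.98 from 9.21, 9.90 and 9.66. The secreted protein gene Nenf rose by 1.83, and it was also higher than in iCM hearts, by 1.63 (limma adjusted p = 0.0443). The thioredoxin-like gene Txndc17 rose by 2.43, Wbp2 by 2.30, Igbp1, which encodes a regulatory subunit of phosphatase 2A, by 1.70 and the ciliary GTPase gene Arl3 by 1.59. The exosome arrays of Arl3 were nearly equal, at 10.69, 10.74 and 10.74.

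Psmd7, a subunit of the lid of the proteasome, was at 15.80, 15.30 and 14.57 in saline and 11.94, 12.64 and 12.17 in iCM-Ex, a fall of 2.97 ± 0.46 (limma adjusted p = 0.0374). It was the member that fell among 50 measured proteasome genes, of which 34 were higher in iCM-Ex (median 0.31). Apbb2, an adaptor that binds the tail of the amyloid precursor protein, fell from 15.68, 15.97 and 16.65 to 13.37, 13.34 and 13.27. Its exosome arrays were nearly equal, and its iCM mean was 13.27 ± 1.03 (SD). Phxr4 fell from 7.69, 8.24 and 8.74 to 5.35, 5.44 and 5.47, near the median negative control. The zinc finger genes Zfp46 and Zfp605 fell by 2.76 and by 2.6, and Zfp605 ended at 4.77, below the negative control of iCM-Ex. Across the 358 measured Zfp zinc finger genes 223 were lower, with a median of −0.21. All iCM-Ex arrays lay below saline in 60 (16.8%) and above in 15 (4.19%), against 9.53% and 12.2% of all genes.

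Dll4, the ligand that endothelial tip cells use to restrain their neighbours through Notch, was at 8.72, 9.23 and 8.85 in saline and 6.21, 6.99 and 5.97 in iCM-Ex. It fell by 2.54 ± 0.35 (limma adjusted p = 0.0291), and it was also lower than in iCM hearts (8.20 ± 0.42), by 1.81 (limma adjusted p = 0.0443). Of 29 measured Notch pathway genes 16 were lower with a median of −0.19, which was −0.03 without saline replicate 3, −0.07 without iCM-Ex replicate 3 and −0.47 with control separation as a covariate. Dll4 was the one that fell. Its receptor Notch1 was at 5.65, 6.48 and 5.42 in saline and at 4.39, 4.59 and 4.31 in iCM-Ex (−1.42; limma adjusted p = 0.0966), and the ligand Jag1 differed by −1.15. Of 11 endothelial markers 6 were lower and 5 higher, with a median of −0.36. Array means were 10.27 to 11.01 in saline and 9.91 to 10.68 in iCM-Ex. Of these markers 4 (36.4%) lay wholly below saline, against 9.53% of all genes, and none wholly above or called. They were the junction gene Cdh5, at 13.52, 13.26 and 13.47 in saline and 12.16, 12.52 and 12.15 in iCM-Ex, the VEGF receptors Kdr and Flt1, which differed by −1.51 and −1.04, and Pecam1, by −0.61. Cdh5 was at 13.17, 13.55 and 13.72 in iCM, near saline as Dll4 was. Of the markers that were higher, Cldn5 differed most, by 1.16. It overlapped, at 6.23, 6.37 and 7.85 in saline and 8.0, 8.22 and 7.7 in iCM-Ex. The part of these markers in the Dll4 result was not tested.

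Hipk2, a nuclear kinase that acts on p53 and on co-repressors, fell from 13.44, 13.66 and 12.94 to 11.43, 11.13 and 9.80. Phka2, a regulatory subunit of phosphorylase kinase, which starts the breakdown of glycogen, fell from 10.14, 10.59 and 10.71 to 7.89, 8.90 and 7.41. Cyyr1 fell from 11.53, 11.09 and 11.60 to 9.22, 9.44 and 8.21. iCM hearts lay near saline in these 3 genes, at 12.79 ± 0.34, 9.83 ± 0.14 and 11.14 ± 0.25. Against iCM, Cyyr1 was lower by 2.18 (limma adjusted p = 0.0318), and Hipk2 and Phka2 differed by −2.0 and −1.76 (limma adjusted p = 0.0588 and 0.0591). In each, iCM-Ex replicate 3 was the lowest of the 6 arrays.

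Further falls were spread over RNA handling, protein synthesis and membrane genes. Srrm2, a scaffold of nuclear speckles, was at 15.12, 15.26 and 15.59 in saline and 13.21, 13.48 and 13.41 in iCM-Ex. Smg1, the kinase that starts nonsense-mediated decay, fell by 1.85, and Lsg1, a GTPase of large-subunit maturation, by 1.89. Iars, the isoleucyl-tRNA synthetase, fell from 9.98, 9.75 and 9.81 to 7.47, 8.04 and 8.09, and was the member called among 34 aminoacyl-tRNA synthetases (median −0.14). Eral1, which helps to assemble the small mitochondrial ribosomal subunit, fell by 1.58. Ubap2l, an RNA-binding protein of stress granules, fell by 2.05, and Selenoi, an enzyme of phosphatidylethanolamine synthesis, by 2.08. Tulp4, Synj2, Zdhhc24 and Mfsd6 fell by 2.39, 2.27, 2.25 and 2.20, and Leng8 by 1.74. Manea, a Golgi mannosidase, fell by 1.67 from 11.22, 11.30 and 11.15. It was higher in iCM-Ex than in iCM, by 1.70 (limma adjusted p = 0.0355), so its exosome level lay between the other groups.

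In 9 of the 68 called genes 1 group or both averaged less than the negative controls, among them Sbk2, Cfap44, Brip1, Trim43a and H2ac6 in saline and Jchain in both groups, so the sizes of those changes are uncertain. Predicted genes and an olfactory receptor made up 4 of the 68.

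Whole families were then compared by their medians. Of 118 gene families and lists, 115 had at least 8 measured members. The 8 farthest above and the 8 farthest below the median of all genes are described here, and the other 99 had medians between −0.38 and 0.91. Lists were not tested as sets, and members are not independent of each other.

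**Figure D2:**
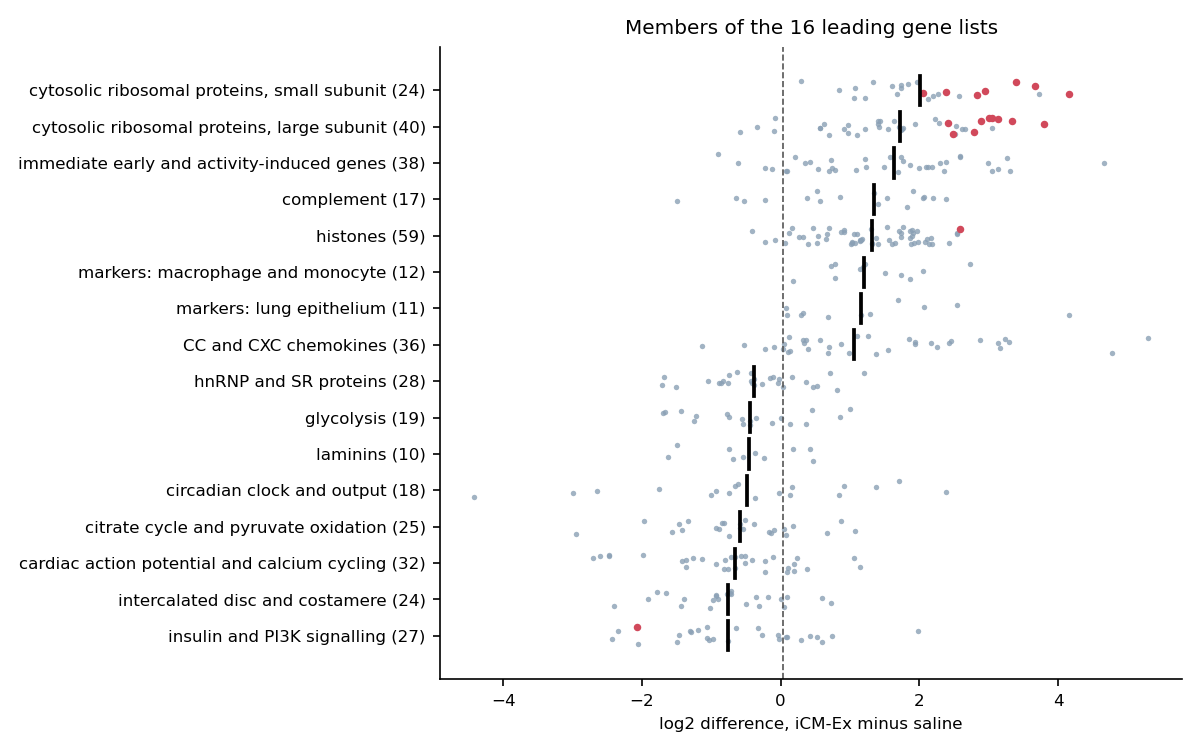
Log2 difference (iCM-Ex minus saline) of each member of the 16 leading lists, with the number of measured members in brackets, genes past the limma threshold in red, list medians as black bars and the median of all genes as a dashed line. Both ribosomal lists lie almost wholly to the right with 7 and 9 red points, while histones and insulin signalling hold 1 each and the other 12 lists none.

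Insulin and PI3K signalling stood farthest below with the intercalated disc. Insulin and its related growth factors act through a receptor kinase, adaptor proteins and PI3 kinase on AKT and mTOR, which govern growth and sugar uptake. Of 27 measured genes 19 were lower, with a median of −0.76. In 12 (44.4%) every iCM-Ex array lay below every saline array and in 2 (7.41%) above, against 9.53% and 12.2% of all genes. Rptor, the scaffold of mTOR complex 1, was the member that fell, from 6.69, 7.63 and 6.85 to 4.97, 5.17 and 4.82 (by 2.07 ± 0.34; limma adjusted p = 0.0437). Its exosome mean of 4.99 was close to the negative control, and its iCM mean of 4.94 was as low. The receptor gene Insr was at 13.96, 13.81 and 12.92 in saline and 11.88, 11.64 and 10.16 in iCM-Ex (limma adjusted p = 0.0841), and the adaptor Irs1 at 6.96, 8.0 and 7.14 against 5.10, 5.32 and 4.41 (0.0646). Both separated the groups without passing the threshold. The PI3 kinase subunit Pik3r1, the mTOR brakes Tsc1 and Tsc2, Pdpk1, Gsk3b and Rictor also lay wholly below, with differences of −1.31, −1.29, −1.47, −1.06, −1.19 and −1.06. Igf2, a growth factor of the same family, was at 8.89, 10.25 and 10.28 against 7.25, 7.93 and 8.07. In the other direction Akt1 differed by 0.74 and Igfbp3 by 1.98, both without overlap. Saline replicate 1 had the lowest saline mean of the list, and without it the median was −0.91. The median was −0.57 without saline replicate 2 and −0.69 without iCM-Ex replicate 3.

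Intercalated disc and costamere genes encode the junctions that join heart muscle cells end to end and tie their sarcomeres to the membrane. Of 24 measured, 19 were lower, with a median of −0.76 and none past the limma threshold. In all, 9 (37.5%) lay wholly below saline, against 9.53% of all genes, and none wholly above. Dag1, the dystroglycan that links the cell to laminin, was at 14.83, 14.73 and 14.52 in saline and 12.60, 12.66 and 11.58 in iCM-Ex (−2.41; limma adjusted p = 0.102). Gja1, the main ventricular gap junction protein, was at 15.33, 15.63 and 14.40 against 14.00, 13.26 and 12.36 (−1.92). Dsp, Cdh2, Sgca and Sgcb, parts of desmosome, adherens junction and sarcoglycan complex, also lay wholly below, with differences of −1.79, −1.44, −1.66 and −1.39. The desmosomal gene Jup and the caveolin gene Cav3 differed by 0.59 and 0.72 and overlapped. iCM-Ex replicate 3 was the lowest array for the list, and without it the median was −0.48.

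Genes of the cardiac action potential and calcium cycling had a median of −0.66, with 24 of 32 lower and none called. Of the 32, 9 (28.1%) lay wholly below saline and 2 (6.25%) wholly above, against 9.53% and 12.2% of all genes. The pore gene of the L-type calcium channel, Cacna1c, which triggers each beat's calcium release, was at 14.35, 14.10 and 12.74 in saline and 11.20, 11.45 and 10.45 in iCM-Ex. The release channel gene Ryr2 was at 12.88, 12.20 and 10.46 against 9.92, 9.65 and 8.14, and the repolarising potassium channel gene Kcnq1 at 8.18, 7.17 and 6.78 against 5.26, 5.67 and 5.26 (limma adjusted p = 0.242 and 0.0817). In these 3 genes saline replicate 3 stood nearest to the exosome arrays, and without it the list's median was −0.90 with 21 members wholly below, where 15.2% of all genes lay below. The median was −0.36 without saline replicate 1 and −0.40 without iCM-Ex replicate 3. Ank2, which anchors ion transporters, differed by −1.27. The abundant calcium pump inhibitor Pln, at 19.10 to 19.34 and 18.85 to 19.27, overlapped. Trdn, a partner of the release channel, and Fkbp1b, which stabilises it, lay wholly above saline, by 1.06 and 1.15, the last from a saline mean below the negative control.

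Fuel metabolism was lower in parts. For the citrate cycle and pyruvate oxidation the median was −0.59, with 19 of 25 lower and none called. Pdha1, the catalytic subunit by which pyruvate enters the cycle, was at 14.33, 13.64 and 12.54 in saline and 10.47, 11.45 and 9.76 in iCM-Ex (−2.95 ± 0.57; limma adjusted p = 0.0684), and Dlst differed by −1.33. iCM-Ex replicate 1 set much of the rest, since without it the median was −0.16. Leaving out saline replicate 2 gave −0.36, leaving out saline replicate 3 gave −0.91, and control separation as a covariate gave −0.98. The pyruvate carrier gene Mpc1 went the other way, at 17.16, 16.60 and 16.02 against 17.20, 17.98 and 17.82. For glycolysis the median was −0.44 with 13 of 19 lower. The phosphofructokinase genes Pfkp and Pfkl, which set the pace of the pathway, were at 11.57, 10.95 and 11.21 against 9.50, 9.98 and 9.17 and at 10.92, 10.86 and 10.32 against 9.77, 8.90 and 8.43. The glucose transporter Slc2a4 and aldolase Aldoa lay wholly below as well, while Gapdh overlapped, at 18.61 to 18.97 against 18.65 to 19.02, and Pgk1 lay above by 1.0.

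The circadian clock is a loop in which Arntl and its partners Clock and Npas2 switch on Per, Cry, Nr1d and Dbp genes whose products feed back, so that Arntl and Npas2 peak at the opposite time of day to Dbp, Per3 and Nr1d1. The 18 measured genes did not move one way. Dbp was at 15.21, 15.77 and 15.19 in saline and 11.22, 11.33 and 10.37 in iCM-Ex, a difference of −4.42 ± 0.85 (limma adjusted p = 0.0674). Per3 was at 10.07, 9.21 and 7.82 against 6.14, 6.0 and 5.99, and Nr1d1 at 10.52, 12.15 and 11.64 against 9.26, 9.36 and 7.73. Arntl was at 6.84, 8.57 and 9.15 against 9.18, 10.50 and 9.98, Npas2 at 5.0, 5.30 and 6.10 against 6.45, 7.03 and 7.05, and Cry1 at 5.84, 5.87 and 5.47 against 6.48, 6.68 and 6.76. Each of these 6 genes separated the groups, and none was called. In all, 5 members (27.8%) lay wholly below and 4 (22.2%) wholly above saline, against 9.53% and 12.2% of all genes. The median of −0.49 describes neither set. It was −0.04 without iCM-Ex replicate 2, −0.27 without saline replicate 2, −0.26 without iCM-Ex replicate 3 and −0.04 with control separation as a covariate. Per1, which is also an immediate early gene, was at 9.0 in iCM-Ex replicate 1 and at 4.47 and 4.30 in the other exosome arrays.

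Laminins, the basement membrane proteins around muscle fibres and capillaries, had a median of −0.45 over 10 genes, −0.74 without saline replicate 1 and −0.21 without iCM-Ex replicate 3. Lama4, the laminin chain of vessel walls, was at 11.98, 12.44 and 12.37 in saline and 10.89, 10.64 and 10.39 in iCM-Ex (limma adjusted p = 0.0673), and Lamb2 at 11.54, 13.12 and 11.69 against 11.38, 11.02 and 9.45. The 42 collagens had a median of 0.03. The hnRNP and SR proteins, which coat new transcripts and choose splice sites, had a median of −0.39 over 28 genes. Of these, 11 (39.3%) lay wholly below saline and 2 (7.14%) above, against 9.53% and 12.2% of all genes. Srsf4 was at 10.64 or more on the saline arrays and at 9.76, 9.84 and 9.36 in iCM-Ex (limma adjusted p = 0.0754), and Hnrnpa2b1 at 16.17, 16.20 and 15.50 against 14.74, 14.80 and 13.77.

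Immediate early genes lay higher after exosomes, most of all on 1 array. They encode transcription factors and feedback proteins that are switched on within minutes of growth signals, stretch, injury or handling of tissue. Of 38 measured genes 34 were higher with a median of 1.64, and none was called. Of the 38, 16 (42.1%) lay wholly above saline, against 12.2% of all genes. Ier2 was at 5.97, 5.87 and 6.13 in saline and 9.84, 7.44 and 8.44 in iCM-Ex (limma adjusted p = 0.0674). Zfp36, which destroys cytokine messengers, was at 5.37, 6.42 and 5.91 against 13.66, 8.65 and 9.37. Fos was at 4.04, 5.21 and 5.44 against 9.01, 7.46 and 7.34, Junb at 7.65, 8.06 and 8.02 against 13.38, 9.64 and 10.13, and Atf3 at 7.02, 8.55 and 8.35 against 12.15, 9.12 and 9.72. In these 5 genes all exosome arrays were above saline and iCM-Ex replicate 1 was far above the rest. The receptors Nr4a1 and Nr4a3 were high on that array alone. Without it the median was 0.56 and 17 members lay wholly above, where 18.6% of all genes did.

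The TGACG motif, the core of the CRE that CREB family factors bind and contained in the full site TGACGTCA, was in 20 of the 30 immediate early genes in the promoter table (66.7%) and in 9 of the 13 without overlap between groups, against 27.1% of all measured genes. This motif was chosen after values were seen. It was also in 43.1% of the cytosolic ribosomal protein genes in the table, 30.6% of genes that rose and 37.5% of genes that fell. The full site was in 3 of the 30 immediate early genes (10%), against 2.63% of all. The CArG box, CC and GG around a run of A or T, was in 2 (6.67%), against 1.7%. GGGCGG, a GC box, was in 86.7% against 51.2%. The 120 bases before the start are shown for Fos (plus strand, chr12:85473770-85473889), Junb (minus strand, chr8:84978749-84978868) and Atf3 (minus strand, chr1:191183334-191183453), RefSeq GRCm38.p6, with TGACG or its complement CGTCA in capitals.
Fos: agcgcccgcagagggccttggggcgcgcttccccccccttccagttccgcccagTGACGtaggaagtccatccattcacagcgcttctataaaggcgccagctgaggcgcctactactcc
Junb: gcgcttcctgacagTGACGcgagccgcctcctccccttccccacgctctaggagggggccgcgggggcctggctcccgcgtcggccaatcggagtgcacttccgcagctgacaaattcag
Atf3: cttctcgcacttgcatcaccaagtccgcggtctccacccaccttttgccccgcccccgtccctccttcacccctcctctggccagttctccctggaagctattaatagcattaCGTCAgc

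**Figure D3:**
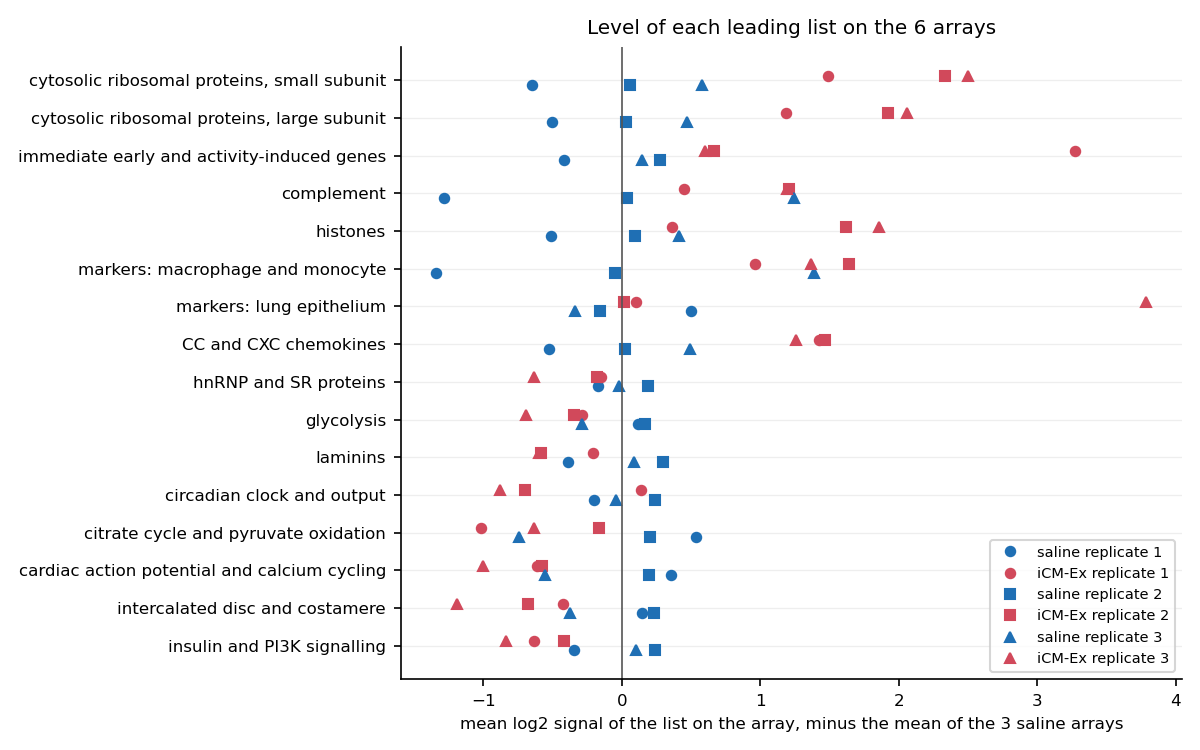
Mean log2 signal of each leading list on each array, minus the mean of the 3 saline arrays, with saline in blue and iCM-Ex in red. Marker shapes give the replicate number, which the labels do not call a pairing. The ribosomal lists separate the groups, immediate early genes stand out on iCM-Ex replicate 1 and lung markers on iCM-Ex replicate 3, and macrophage and complement lists span a wide range within saline.

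Histone genes had a median of 1.31, with 56 of 59 higher, 25 wholly above saline (42.4%, against 12.2% of all genes) and none wholly below. Most of these genes make the DNA-packing proteins needed when a cell copies its genome, and their messengers end without a poly(A) tail. H2ac6 rose from 4.70, 5.15 and 5.61 to 7.72, 7.39 and 8.12 (by 2.59 ± 0.34; limma adjusted p = 0.0291), from a saline mean below the negative control, and was at 8.19 ± 0.37 in iCM. The histone copies resemble each other closely, and H3c14 and H3c15 had identical values, so members are not independent readings. The 29 cell cycle and proliferation genes had a median of 0.28. Of these, 3 (10.3%) lay wholly above and 4 (13.8%) wholly below saline, against 12.2% and 9.53% of all genes. Without iCM-Ex replicate 1 the histone median was 1.84 with 49 members wholly above, where 18.6% of all genes were. It was 1.12 without saline replicate 1, 1.1 without iCM-Ex replicate 3 and 1.07 with control separation as a covariate.

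Genes of MHC class II presentation, by which macrophages, dendritic cells and B cells show peptides to helper T cells, were measured by 6 probe sets, too few for the leading lists, and were chosen after their values were seen. All 6 lay wholly above saline, where 12.2% of all genes did, and none was called. H2-Ab1 was at 9.57, 9.07 and 10.00 in saline and 12.04, 12.64 and 11.32 in iCM-Ex (limma adjusted p = 0.104). H2-Eb1 was at 5.22, 5.35 and 9.17 against 10.47, 11.19 and 9.96, so that saline replicate 3 was near the exosome arrays. H2-Aa was at 11.23, 12.49 and 13.49 against 14.11, 15.28 and 14.33. H2-DMb1, which loads the peptides, differed by 2.57 and Ciita, the master activator of these genes, by 1.11 from saline values below the negative control (4.32, 4.12 and 4.43).

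Class II promoters share a Y box, an inverted CCAAT with fixed neighbours. CTGATTGG, added after values were seen and overlapping the complement of CCAAT, was in 2 of the 4 genes in the promoter table against 5.55% of all measured genes, and CCAAT was in all 4 against 42.2%. The 2 stretches before the start are H2-Aa (minus strand, chr17:34287824-34287943) and H2-Eb1 (plus strand, chr17:34305747-34305866), RefSeq GRCm38.p6, with that motif in capitals.
H2-Aa: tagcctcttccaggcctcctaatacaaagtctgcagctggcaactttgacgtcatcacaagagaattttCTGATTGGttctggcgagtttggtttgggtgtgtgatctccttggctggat
H2-Eb1: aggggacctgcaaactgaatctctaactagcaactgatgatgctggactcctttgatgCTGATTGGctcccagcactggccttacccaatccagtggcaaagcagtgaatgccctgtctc

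Macrophage and monocyte markers moved beside these genes. All 12 measured were higher in iCM-Ex with a median of 1.2, yet none separated the groups and none was called. Their mean was 8.43, 9.72 and 11.16 on the saline arrays and 10.73, 11.41 and 11.14 on the exosome arrays, so that saline replicate 3 was as high as the exosome hearts and saline replicate 1 was lowest. C1qa was at 8.69, 9.87 and 12.37 against 11.87, 12.66 and 12.56, and Cd14 at 5.51, 7.82 and 9.64 against 12.63, 9.26 and 9.27. The tissue macrophage marker Lyve1 differed by 0.18. Without saline replicate 1 the median was 0.64 and without saline replicate 3 it was 2.12. The part of macrophage number in the class II result was not tested. Markers of T, B and NK cells had means of 4.19 to 4.29 in saline and 4.47 to 4.73 in iCM-Ex, below the negative control. Of 12 markers 3 (25%) lay wholly above saline, against 12.2% of all genes, with none called. Of these, Gzma, a protease of cytotoxic granules, was at 4.77, 4.68 and 5.30 against 6.71, 6.70 and 7.12 (1.93; limma adjusted p = 0.105), Nkg7 differed by 1.22 and Cd3e by 0.35. The B cell markers Cd79a, Cd79b and Ms4a1 overlapped.

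Chemokines, which draw leukocytes into tissue, had a median of 1.05 with 32 of 36 higher and none called. Of the 36, 11 (30.6%) lay wholly above saline and 1 (2.78%) below, against 12.2% and 9.53% of all genes. Without iCM-Ex replicate 1 the median was 0.63. Ccl8, a monocyte attractant, was at 5.67, 6.06 and 8.35 in saline and 9.21, 13.91 and 12.86 in iCM-Ex (limma adjusted p = 0.0754), and Ccl6 at 6.57, 8.82 and 9.56 against 10.12, 11.44 and 12.02. Ccl2 was at 4.35, 6.68 and 7.92 against 10.94, 9.01 and 8.69, and Ccl7 at 5.78, 7.43 and 7.62 against 9.52, 9.85 and 7.97. Cxcl13, which guides B cells, was at 7.25, 12.28 and 9.74 against 13.94, 13.09 and 16.60. The neutrophil attractants Cxcl1 and Cxcl2 were at 12.98 and 13.93 on iCM-Ex replicate 1 and at most 5.99 on the other 5 arrays. Ccl21a, Ccl21b and Ccl21c are near copies and read almost alike. Complement genes had a median of 1.35 over 17 members, 0.53 without saline replicate 1. Of the 17, 2 (11.8%) lay wholly above saline, close to the 12.2% of all genes. C1qb and C1qc tracked C1qa, and Cd59a, which shields cells from complement, differed by −1.49.

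The lung list stood out through 1 array. Lung epithelium markers had a median of 1.16 over 11 genes and −0.09 without iCM-Ex replicate 3, and 0.67 with control separation as a covariate. Their mean was 8.62 on that array and 4.49 to 5.33 on the other 5, and it was 11.22, 6.16 and 5.30 in iCM. The surfactant gene Sftpc was at 18.09 there against 4.82 to 5.96, whereas Scgb1a1 of the airways was at 4.67 there and at 3.92 to 4.68 on the others. Without iCM-Ex replicate 3 the ribosomal medians were 1.77 and 1.54, the immediate early median 1.81 and the class II median 2.52.

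Outside the leading lists, those of the respiratory chain, mitochondrial ribosome and spliceosome were chosen after their values were seen. Complex I, which takes electrons from NADH, had 29 of 36 subunits higher with a median of 0.91. In 12 (33.3%) all iCM-Ex arrays lay above saline, against 12.2% of all genes. Ndufa2 was at 11.16, 11.00 and 10.59 in saline and 12.18, 13.54 and 13.24 in iCM-Ex. Complex IV, with Cox7a2 called, had a median of 0.87 and 8 of 18 (44.4%) wholly above. The ATP synthase had a median of 0.80 with 7 of 17 (41.2%) wholly above, among them Atp5e at 7.92, 7.28 and 8.29 against 9.28, 11.38 and 12.16. Of 76 mitochondrial ribosomal proteins 56 were higher (median 0.63), 18 (23.7%) wholly above and 4 (5.26%) wholly below, where 9.53% of all genes lay below. Spliceosomal snRNP and Sm proteins had 29 of 34 higher and a median of 0.66. Without iCM-Ex replicate 2 the median was 0.54 for complex I and 0.47 for the ATP synthase, and without iCM-Ex replicate 1 it was 1.23 for the latter. Without saline replicate 1 the snRNP and Sm median was 0.43. With control separation as a covariate the median was 0.45 for complex I and 0.34 for complex IV. In complex I iCM-Ex replicate 1 lay at the level of saline, with list means of 12.90 against 14.24 and 14.20 on the other exosome arrays and 12.67 to 13.40 in saline.

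The genes that rose were shorter than most and those that fell were longer. By genomic span, from first to last base of the gene in RefSeq GRCm38.p6, the median was 5220 bases for the 43 genes that rose and 34215 for the 25 that fell, against 17778 for all genes. Without cytosolic ribosomal proteins, the 27 others that rose had a median span of 8273. Among the 10275 genes above the median negative control in both groups, cut into 5 bins of equal size by span, the median difference was 0.32, 0.07, −0.07, −0.18 and −0.30 from the shortest to the longest bin. Genes wholly above saline made up 21.9% of the shortest bin and 5.79% of the longest, and genes wholly below 5.84% and 21.8%. Calls followed, with 24 risen and 4 fallen in the shortest bin and none risen and 8 fallen in the longest. Against the saline mean, iCM-Ex replicate 1 had medians of 0.06 in the shortest and −0.22 in the longest bin, replicate 2 had 0.40 and −0.21, and replicate 3 had 0.41 and −0.54. Control separation was also higher on every exosome array, and its part in this order was not tested.

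**Figure D4:**
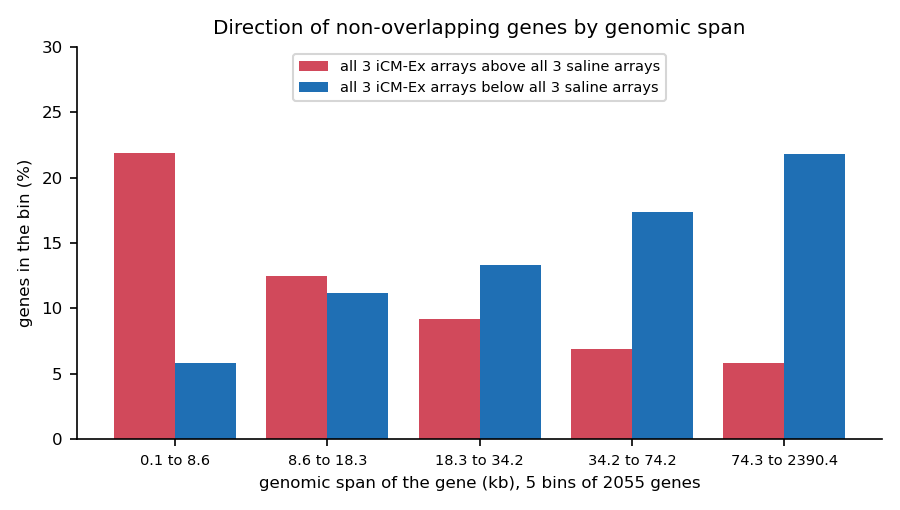
Share of genes (%) with all 3 iCM-Ex arrays above (red) or below (blue) all 3 saline arrays, in 5 equal bins by genomic span in kb, for genes above the median negative control in both groups. Red falls from 21.9% to 5.79% and blue rises from 5.84% to 21.8% with span.

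Single arrays set a part of the differences. In 279 genes (1.43%) 1 of the 6 arrays lay at least 2 log2 units beyond the other 5. Of the 346 genes whose group means differed by at least 2, 70 were of this kind, and none of the 68 called genes was. iCM-Ex replicate 1 was far above in 102 genes and below in 11, saline replicate 1 above in 36 and below in 111, and iCM-Ex replicate 3 above in 12 and below in 1. The other 3 arrays had 11 in all above and none below.

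On iCM-Ex replicate 1 the cytokine Il6 was at 17.67, against 3.32 to 7.16 on the other 5 arrays. Nr4a3 was at 14.58 against 5.70 to 6.52, and Errfi1, a feedback inhibitor of the EGF receptor, at 17.65 against 8.67 to 10.17. These are genes induced early by stimuli, like the rest of the set named by rule, Cxcl2, Cxcl1 and Nr4a1. The same array was low for the apelin receptor gene Aplnr (5.23 against 7.86 to 8.83), Meox2, Mest, Slc9a3r2, and the mitochondrial genes Ndufs7 (12.06 against 14.37 to 16.23) and Idh3b (12.26 against 14.53 to 15.27). Alas2, the haem synthesis enzyme of red cell precursors, and the interferon-induced chemokine Cxcl9 were at 12.87 and 11.98 on iCM-Ex replicate 2. On iCM-Ex replicate 3, Sftpa1 and Ager, of alveolar cells, were at 11.89 and 9.95, and the fat and slow muscle carbonic anhydrase Car3 at 10.97. Xirp2, a repeat protein of the intercalated disc, was at 11.12 there against 13.16 to 16.01.

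Saline replicate 1 was low for some immune genes, and also for Cdk11b, Vat1 and Tmem45a, at 5.17, 7.41 and 7.52. C4b was at 8.35 on this array against 12.18 to 13.24, the alarmin Il33 at 7.11 against 10.29 to 11.68, and the lectin receptor Clec4n at 5.18 against 8.28 to 10.27. Rnase2b, Slc9c1 and Cdr1 were high there, at 7.28, 7.65 and 9.05, and at most 5.66 on the others. Sfrp4, a Wnt antagonist, and Ccn3 were at 8.90 and 11.70 on saline replicate 2, and the B cell receptor gene Cd72 was at 11.50 on saline replicate 3 against 6.59 to 9.30.

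**Figure D5:**
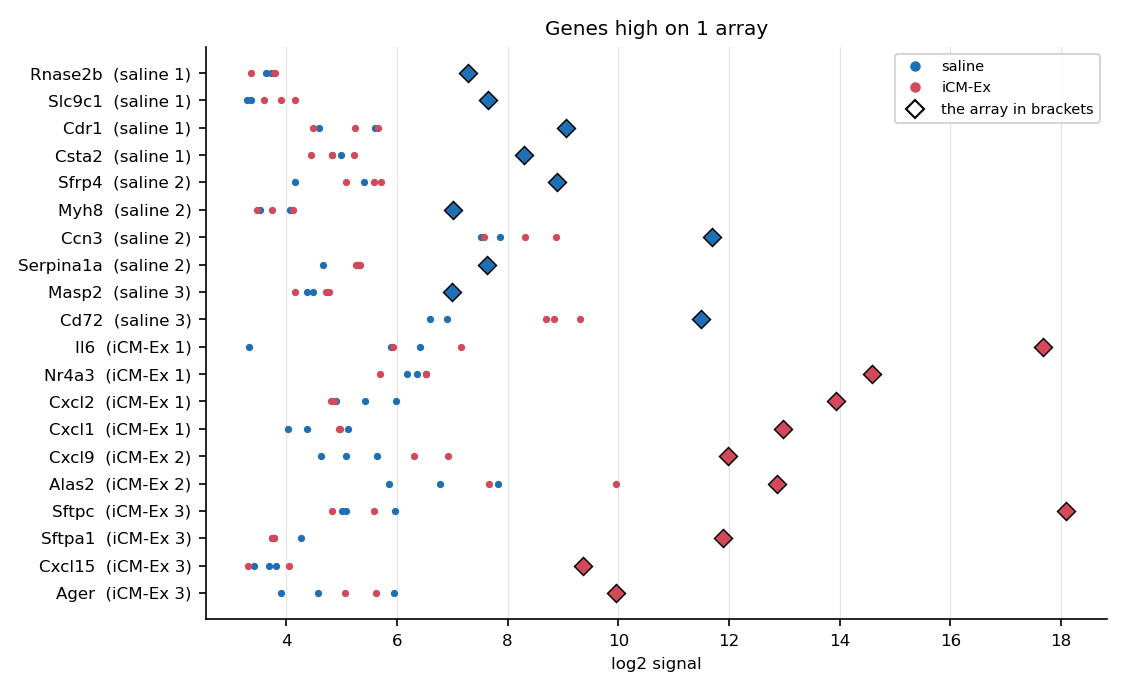
Log2 signals of up to 4 genes per array with the largest gap above the other 5 arrays, with the array named in brackets and drawn as a diamond, and saline in blue and iCM-Ex in red. Il6 on iCM-Ex replicate 1 and Sftpc on iCM-Ex replicate 3 lie farthest from the rest, at 17.67 and 18.09.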

How the data were processed

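Total RNA from the border zone of 9 samples was measured on Clariom S arrays, with 5.5 µg of cDNA labelled per sample, per the labels' protocols. The authors deposited a log2 signal for every probe set. The submitters' processing notes name Affymetrix Expression Console, and say nothing of its version or settings in the form used here. Values lay between 2.25 and 19.93. Of 28846 rows 6640 were controls, and 19572 of the 22206 others had 1 gene symbol in the array annotation, which for 55 genes meant several rows, of which the brightest was kept. This left 19505 genes, with no further filter. Precision is limited by the 3 arrays per group.

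All 9 arrays entered a limma fit with a mean per group (limma 3.58.1, R 4.3.3), the contrast iCM-Ex minus saline was tested on both sides, and p-values were adjusted by Benjamini-Hochberg over all genes. The fit was tested on simulated data. Values after ± are standard errors (SE) of a difference or standard deviations (SD) of a level. Named genes are the 15 largest rises and falls among called genes whose arrays do not overlap, up to 4 called members of each list or else the 2 with the smallest p, and up to 6 genes per array and direction set by 1 array. Families and lists were written from symbols and textbook knowledge, and described by counts and medians. Members, lists and rules were chosen with earlier results of these data known. Sequences are from the RefSeq tables of GRCm38.p6. Alternatives covered normalisation, filters, prior, covariates, array weights and each array left out.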

Additional observations from a re-analysis of the deposited data

Results flagged for a closer look

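Among the 2634 gene rows that carry no gene symbol and so entered none of the comparisons above, 18 passed the limma threshold between iCM-Ex and saline in a fit of all rows but controls, 15 of them higher in iCM-Ex and 3 lower. What they measure is not named in the annotation used here.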

How the results depend on the processing

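The count of 68 was 87 under quantile normalisation, 81 under median centring (53.1% of calls higher, against 63.2%) and 55 among genes above the median gene. It was 1 with the 6 arrays alone (0 of the 68), 17 with a trended robust prior (17 of the 68), 5 with control separation as a covariate (2 of the 68) and 1187 with array quality weights (554 higher, 633 lower), which weighted saline replicate 1 at 0.38 and saline replicate 2 at 2.81. Leaving out 1 array gave 0 to 163. The labels do not say that shared replicate numbers pair the arrays. Deviations of same-numbered arrays correlated at 0.03, 0.07 and 0.03, and those of differently numbered arrays at −0.16 to 0.09. With 3 arrays per group these values cannot settle whether numbers share a batch. With the number as a replicate block 0 genes passed limma (2755 at an unadjusted p under 0.05). The 68 genes kept their direction in every setting that tested them (63 of them in the filter). Their groups do not overlap, so leaving out arrays, array weights, the replicate block or the 6 arrays alone could not have changed it. Of the leading lists, lung markers (median 1.16) turned to −0.09 without iCM-Ex replicate 3 and reached 1.37 without iCM-Ex replicate 2. Bins by protein length were not run, and genomic span was used. Probes near background and 3 arrays per group limit what small differences can be shown.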

Other observations

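Calprotectin genes, chosen after their values were seen, lay above saline on every exosome array. S100a8 was at 4.22, 5.67 and 6.38 in saline and 9.27, 7.31 and 8.29 in iCM-Ex, and S100a9, its partner in neutrophils and monocytes, at 3.82, 5.27 and 5.84 against 8.95, 7.31 and 8.0 (limma adjusted p = 0.126 and 0.0874). Of the 7 other granulocyte markers measured, Retnlg, Cxcr2 and Ngp also lay above saline, by 1.61, 0.76 and 1.07, while Csf3r overlapped at 4.53 to 8.84 in saline and 6.76 to 7.49 in iCM-Ex, and Mmp9, Camp and Ltf overlapped at low levels. Among fatty acid oxidation genes 21 of 27 were lower (median −0.24). Cardiac transcription factors had a median of −0.37 with 7 of 24 (29.2%) wholly below saline, against 9.53% of all genes. Autophagy genes had a median of −0.19. Of these, 3 of 38 (7.89%) lay wholly above and 3 (7.89%) wholly below, under the 12.2% and 9.53% of all genes. The autophagy median ranged from −0.32 to −0.11 on leaving out 1 array and was −0.44 with control separation as a covariate.

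The 1081 olfactory receptors, which heart tissue is not known to use, had a median of 0.01 and array means of 3.78 to 4.12. Of the family 1 gene passed the limma threshold, Olfr1443 (limma adjusted p = 0.0445), with a saline mean below the negative control, at 3.16, 3.47 and 3.77 in saline and 5.21, 4.87 and 5.05 in iCM-Ex.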
